A study of Mus musculus with 214 samples.

Results

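The genes described here are 10 growth genes that are abundant in the fetal or newborn liver and low in the adult liver, followed in a mouse model of exposure to N-nitrosodimethylamine (NDMA), a DNA-methylating liver carcinogen. They are Afp, H19, Igf2, Gpc3, Dlk1, Mest, Plagl1, Cdkn1c, Peg3 and Grb10. They were taken by gene symbol, with no threshold on their values, from a list drawn up with earlier results of these data known, and all 10 were found among the 18647 genes of the WT table and the 19540 genes of the Mgmt-/- table.

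Livers of C57BL/6 mice were profiled by 3′ digital gene expression, in which 1 tag is counted near the end of each polyadenylated transcript. WT stands for RaDR+/+;GPT+/+ mice, which carry a recombination reporter and the gpt mutation reporter, and the Mgmt-/- mice carried both reporters as well and lacked Mgmt, which repairs O6-methylguanine in DNA. Pups of both sexes were injected intraperitoneally with NDMA at 3.5 mg/kg on postnatal day 8 and 7 mg/kg on postnatal day 15, or with saline on the same days. Collection followed the second injection by 1 day (Day1), 2 days (Day2), 5 days (Day5), 10 weeks (Week10) or 10 months (Month10). The WT groups held 26 NDMA and 21 saline livers at Day1, 8 and 8 at Day2, 8 and 7 at Day5, 8 and 8 at Week10, and 13 and 10 at Month10. The Mgmt-/- groups held 12 NDMA and 12 saline livers at Day1, 8 and 7 at Day2, 8 and 6 at Day5, 8 and 8 at Week10, and 13 and 12 at Month10. Each sample was a small piece of whole liver, so fewer cells of a type and less RNA per cell cannot be told apart, and whether a piece came from a tumor is not given in the sources used here.

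Most of the 10 genes are imprinted, which means that only the copy inherited from 1 parent is transcribed, and many of them control how large the fetus grows. Igf2 encodes a growth factor of the fetus, Grb10 an adaptor protein that dampens insulin and IGF receptor signaling, and Cdkn1c the cyclin-dependent kinase inhibitor p57. H19 is a noncoding RNA whose gene neighbours Igf2 and is made from the maternal copy, whereas Igf2 is made from the paternal copy. Afp encodes alpha-fetoprotein, the main plasma protein of the fetal liver, and Gpc3 a cell-surface proteoglycan. Neither Afp nor Gpc3 is imprinted, and both are used as markers of hepatocellular carcinoma. Dlk1 encodes a membrane protein of fetal hepatoblasts, Mest a protein of the hydrolase family, and Plagl1 and Peg3 zinc finger transcription factors.

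On the GRCm38 assembly (GENCODE vM21) Afp lies on the plus strand at chr5:90490737-90508907 and Gpc3 on the minus strand at chrX:52272426-52613950. H19 (chr7:142575529-142578143, annotated as a lincRNA), Igf2 (chr7:142650766-142666816) and Cdkn1c (chr7:143458339-143461050) lie on the minus strand of chromosome 7, with 72623 bases between H19 and Igf2 and 791523 bases between Igf2 and Cdkn1c. Peg3 is on the same chromosome at chr7:6703892-6730431, also on the minus strand. Dlk1 lies at chr12:109452823-109463336, Mest at chr6:30723547-30748465 and Plagl1 at chr10:13060504-13131694 on the plus strand, and Grb10 at chr11:11930508-12038683 on the minus strand. Igf2 overlaps the antisense gene Igf2os, H19 holds the microRNA gene Mir675, and Mest overlaps Copg2. Whether the counting used strand is not given in the sources used here, so reads of overlapping genes on opposite strands are uncertain.

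The promoters of Afp and Gpc3 are shown because these unimprinted genes, both high in pups, were called in different sets of NDMA comparisons below. Both were called higher at Mgmt-/- Day5, and no test compared them with each other. Each is the 250 bases before a start site in RefSeq on GRCm38.p6, printed 5′ to 3′ on the gene's own strand. Promoters were found for 8 of the 10 genes, 14 in all, and not for H19 and Cdkn1c. Capitals mark 4 short motifs searched on both strands, namely the TATA box (letters TATAAA), the CCAAT box, the GC box (letters GGGCGG) and part of the site of the liver factor HNF1 (letters GTTAAT).
Afp, chr5:90490464-90490713, plus strand: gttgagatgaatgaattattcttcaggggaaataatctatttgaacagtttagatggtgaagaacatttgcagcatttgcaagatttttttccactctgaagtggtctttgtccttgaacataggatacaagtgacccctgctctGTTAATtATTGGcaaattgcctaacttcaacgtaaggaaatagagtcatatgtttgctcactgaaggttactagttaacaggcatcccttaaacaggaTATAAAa
Gpc3, chrX:52613975-52614224, minus strand: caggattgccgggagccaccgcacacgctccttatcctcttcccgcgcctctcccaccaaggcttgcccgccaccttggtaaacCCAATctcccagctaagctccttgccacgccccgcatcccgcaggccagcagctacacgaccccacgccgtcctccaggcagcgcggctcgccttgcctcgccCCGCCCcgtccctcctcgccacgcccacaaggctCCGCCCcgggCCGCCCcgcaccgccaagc
The Afp window held GTTAAT from base -105, CCAAT on the opposite strand from base -98 and TATAAA from base -7, counted from the start site. In the Gpc3 window were CCAAT from base -166 and 3 matches to GGGCGG on the opposite strand, from bases -63, -29 and -19. Of 32851 RefSeq promoter windows of this length, 12.4% held TATAAA, 33.8% CCAAT, 32.7% GGGCGG and 6.43% GTTAAT, so each of these short matches is common or fairly common by itself.

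The labels were checked first. The normalized count of Mgmt ranged from 13.0 to 130.0 in the WT livers, with a median of 45.8, and from 0 to 9.67 in the Mgmt-/- livers, with a median of 1.09, so the genotypes did not overlap. The summed hepatocyte markers (Alb, Apoa1, Ttr, Serpina1c and Fgb) reached at least 79369 in every WT library and at least 86003 in every Mgmt-/- library except a pair labelled saline Day5. In those 2 libraries the markers summed to 2350 and 1596, and Kap, a kidney androgen-regulated gene, stood at 6147 and 7562 against a highest value of 13.9 in the other 94 Mgmt-/- libraries. Both were left out of every group. A further 2 WT NDMA libraries at Day1 went against their labelled sex and were kept. Total reads per library ranged from 150038 to 4791649 in WT (median 1710016) and from 713584 to 7740710 in Mgmt-/- (median 2347670). Among the Mgmt-/- saline livers at Day2, 2 were low, with 27.5 and 31.8 normalized counts of Afp, and 1 was high, with 1851.

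Saline livers were compared across ages first, which gave the postnatal course of the 10 genes without NDMA. H19 and Afp were the most abundant of them in pups, and both were nearly absent in adults. In WT saline livers H19 ran from 629 to 3513 normalized counts at Day1 (median 1255), from 123 to 780 at Day2 (204), from 37.1 to 268 at Day5 (99.5), from 0 to 4.57 at Week10 (2.41) and from 0 to 13.1 at Month10 (4.05). The lowest pup was above the highest adult. Afp followed the same course, with medians of 479, 165, 39.1, 4.84 and 1.73 from Day1 to Month10, and ranges of 21.5 to 67.1 at Day5 and 1.10 to 10.7 at Week10 that did not overlap. Igf2 had medians of 127, 12.5 and 0.89 at Day1, Day2 and Day5, and it was at 0 in 7 of 8 WT livers at Week10 and 8 of 10 at Month10. Gpc3 was lost later, with a range of 23.4 to 53.0 at Day5 and 0 to 4.22 at Week10, and Mest likewise, at medians of 21.2 and 2.57.

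**Figure D1:**
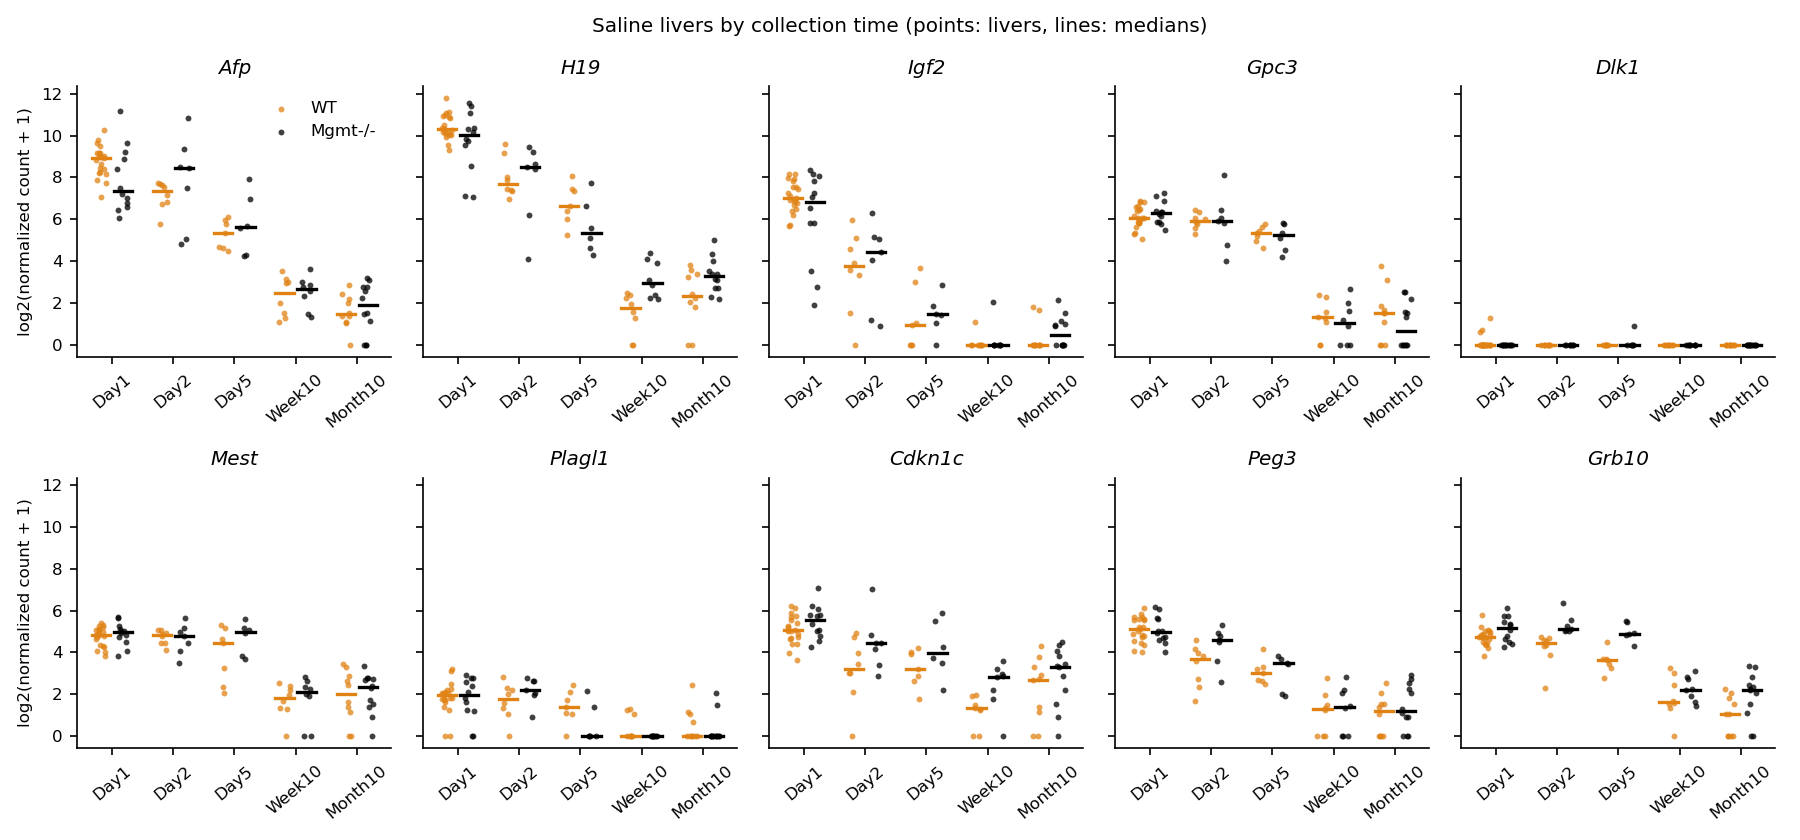
Log2(normalized count + 1) of the 10 genes in the saline livers of WT (orange) and Mgmt-/- (black) at the 5 collection times, with 1 point a liver and a line at each median. H19 in WT goes from a median of 1255 normalized counts at Day1 to 2.41 at Week10, whereas Dlk1 and Plagl1 are low at every age.

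Of the 10 genes, 8 passed the filter of a mean of at least 5 normalized counts over the saline livers, and Dlk1 and Plagl1 did not. The 8 passed through the pups, where they are high, so their number is a description. All 8 were lower at Week10 than at Day2 in WT, where 12.2% of all genes tested were called lower (limma, Benjamini-Hochberg adjusted p under 0.05 and a log2 fold change beyond 0.58). Their median log2 fold change was -3.20, beside -0.07 over all genes. H19 fell by 6.49 on the log2 scale (SE 0.43) and Afp by 4.83 (SE 0.39), followed by Gpc3 (-4.68), Igf2 (-3.36), Mest (-3.05), Grb10 (-2.32), Peg3 (-2.25) and Cdkn1c (-1.98, SE 0.48). Day2 and Week10 livers of WT came from the same 2 batches, and within them H19 differed by -7.82 and -5.17 and Afp by -4.68 and -4.98. At Month10 against Day2, 7 of the 8 were lower, against 25.9% of all genes. The exception was Cdkn1c at -0.94 (adjusted p = 0.0914), with a WT median of 5.52 at Month10 and 1.51 at Week10. In this contrast the median of all genes was 0.23 on the log2 scale. From Day2 to Week10 all 6 proliferation genes and all 7 stellate and fibroblast markers tested were also lower in WT, with median sums of 142 and 22.8 and of 827 and 448, and their part in the result was not tested.

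In Mgmt-/- saline livers the 8 genes were likewise lower at Week10 than at Day1 (9.44% of all genes lower) and at Month10 than at Day1 (24.5%), by a median of -4.18 and -4.24. H19 fell by 7.49 (SE 0.72) and Igf2 fell by 6.76 (SE 0.83) to Week10. All 6 proliferation genes (median sums 358 and 20.7) and all 7 stellate and fibroblast markers tested (1054 and 401) were lower at Week10 as well. The Mgmt-/- adults came from 1 batch, which also held 4 of the Day1 livers. The falls of H19 and Igf2 to Week10 equal the differences within that batch (-7.49 and -6.76). The Day1 livers of the other batch thus do not add to their size. The fall began within the first days. Between Day1 and Day5, Afp (-2.52), H19 (-3.62), Igf2 (-4.21) and Peg3 (-2.07) were called lower in Mgmt-/-, against 3.02% of all genes. In WT only Igf2 was called lower over those days (-5.08, SE 0.93, adjusted p = 0.0067), against 0.188% of all genes, and the edgeR test called none. WT Day1 and Day5 livers shared no batch, so these values rest on the batch term of the fit.

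From Week10 to Month10 few of the genes were called. None of the 8 genes was called in Mgmt-/- by limma and none had an unadjusted p under 0.05, although 51% of all genes were called in one direction or the other. In WT, 21.2% of all genes were called lower, and of the 8 only Grb10 was, by 1.11 (SE 0.36, adjusted p = 0.0061), with medians of 2.08 and 1.07 counts. Within the batches that held both ages Grb10 differed by -2.24 and -0.19. It was at 0 in all 3 Month10 livers of the former batch, so the call rests mainly on that batch. The Grb10 call was also lost with a larger pseudocount and with a higher filter. The median of all genes shifted by 0.36 in WT and 0.18 in Mgmt-/- in that contrast, and relative to Day1 it shifted by -0.11 at Week10 and 0.12 at Month10 in Mgmt-/-.

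The genes whose levels ran most nearly with those of H19, Afp and Igf2 were then read from the 54 WT saline livers, by Pearson's r of log2(value + 1) over all genes with a mean of at least 5. Among the genes most like H19 were Afp (0.95), D17H6S56E-5 (0.94), Calml4 (0.92) and Hsd3b1 (0.92). Those most like Afp included H19 (0.95), Calml4 (0.94), Hsd3b1 (0.93) and D17H6S56E-5 (0.92). Igf2 was most like H19 (0.90) and Afp (0.89), then Peg3 (0.87), Abcg5 (0.85) and Tpx2 (0.84). The 54 points share their ages, batches and sequencing depth, and these values describe the postnatal course.

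NDMA was compared with saline at each time, first in Mgmt-/- livers. Afp was higher at all 3 early times and at Week10, H19 was called higher at Week10 and Month10, and Cdkn1c was lower at the 3 early times. The number of genes called among those that passed the filter was 1 higher and 1 lower of 8 at Day1, 1 and 1 of 8 at Day2, 2 and 1 of 7 at Day5, 2 and 0 of 4 at Week10, and 1 and 0 of 4 at Month10. Of all genes, 9.06% were called higher and 8.64% lower at Day1, 12.4% and 7.5% at Day2, 11.1% and 6.71% at Day5, 7.27% higher at Week10 and 4.75% higher at Month10. A gene that is near 0 in saline adults could pass the filter only where NDMA livers were high, so the adult counts describe which genes could be tested.

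**Figure D2:**
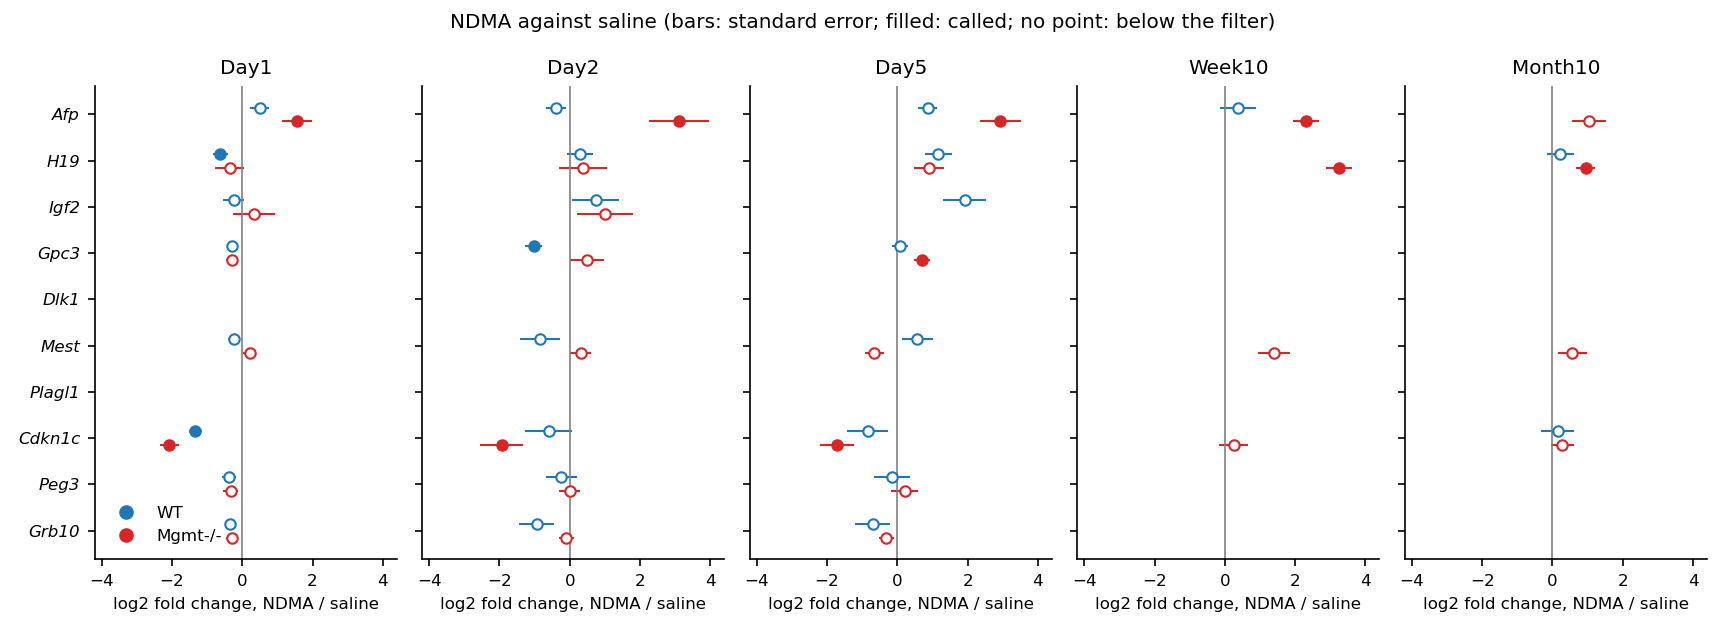
Log2 fold change of NDMA against saline on the horizontal axis (limma, bars of 1 SE) for each gene that passed the filter, in 1 panel a time, with WT in blue, Mgmt-/- in red and called genes filled. Afp lies above 0 at every Mgmt-/- time, H19 reaches 3.25 at Mgmt-/- Week10, and Cdkn1c lies below 0 at Day1 in both genotypes.

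Afp, the plasma protein, ranged from 64.9 to 2336 normalized counts in Mgmt-/- saline livers at Day1, with a median of 161, and from 204 to 2572 in NDMA livers, with a median of 614. The ranges overlapped widely, and the log2 fold change was 1.57 (SE 0.43, adjusted p = 0.0089). Within the 2 batches of Day1 the difference was 1.65 and 1.40. At Day2 the saline livers ranged from 27.5 to 1851 (median 351) and the NDMA livers from 1013 to 4316 (median 1852), with 5 of 8 above the highest saline liver. Afp rose by 3.10 there (SE 0.85, adjusted p = 0.0168), a value that lay between 2.52 and 3.60 when 1 liver was left out in turn, whereas edgeR gave 2.14 with an adjusted p of 0.0724.

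At Day5 the Afp values of the groups did not overlap. The 6 saline livers ranged from 18.1 to 243, with a median of 48.0, and the 8 NDMA livers from 244 to 912, with a median of 435. The log2 fold change was 2.93 (SE 0.58, adjusted p = 0.00295). Of 6 proliferation genes 1 was higher at Day1, 3 at Day2 and 2 at Day5, beside 9.06%, 12.4% and 11.1% of all genes. Their median sums in NDMA and saline livers were 423 and 358, 599 and 290, and 311 and 222 (none at 0 throughout). At Day1 the sums overlapped, at 107 to 552 in saline and 303 to 548 in NDMA livers. Hepatocyte markers were lower in 3, 3 and 1 of 5 at those times, beside 8.64%, 7.5% and 6.71% of all genes. At Day5 the cholangiocyte sums did not overlap, at 247 to 353 in saline and 103 to 173 in NDMA livers. Erythroid median sums were 458 in saline and 231 in NDMA livers at Day5, and skeletal muscle ones 6.24 and 27.1. The part of these markers in the Afp result was not tested.

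H19, the noncoding RNA, did not pass the test at the early times in Mgmt-/-. Its medians were 672 in NDMA and 1038 in saline at Day1 (-0.36, SE 0.41), 293 and 359 at Day2 (0.37), and 94.5 and 40.1 at Day5 (0.90, SE 0.43, adjusted p = 0.168). At Day2 the medians and the means (282 and 350) were lower with NDMA, whereas the fitted log2 difference was above 0. No direction is read from that time. With 1 saline liver of Day5 left out, the highest in H19, H19 was called at 1.27 (adjusted p = 0.0068). Igf2 stood at a mean of 6.98 in NDMA and 2.19 in saline livers at Day5, with 5 of 8 NDMA livers above the highest saline liver, and did not pass the filter. It came over the filter in some fits that left out 1 liver, through the NDMA livers where it was high, so those fits give no test of it, and it was called when no filter was used.

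Cdkn1c fell at all 3 early times. At Day1 the saline livers ranged from 17.9 to 134 (median 46.3) and the NDMA livers from 5.16 to 26.7 (median 9.17), with 11 of 12 below the lowest saline liver. The log2 fold change was -2.07 (SE 0.26, adjusted p = 1.1e-07), and it was -2.24 and -1.74 within the 2 batches. At Day2 the medians were 6.58 and 20.7 (-1.94, SE 0.61, adjusted p = 0.0279), and at Day5 4.89 and 15.1 (-1.71, SE 0.48, adjusted p = 0.0137). The Day2 call was lost when any of 4 livers (2 saline and 2 NDMA) was left out, with values of -1.90 to -1.81 and adjusted p-values up to 0.0599. As adults, Cdkn1c differed by 0.25 at Week10 and 0.28 at Month10, neither called. At Month10 its means (8.26 in NDMA and 9.24 in saline livers) and medians (6.33 and 9.05) ran the other way, so no direction is read there. The stellate and fibroblast markers moved with it, since 4 of 7 tested were lower and 1 higher at Day1 and their sum went from a median of 1054 in saline to 725 in NDMA livers (Dcn most abundant, none of the 8 at 0). Erythroid markers did too, with 2 of 2 tested lower and sums of 241 and 110.5 (Alas2 most abundant, Rhag at 0 in all NDMA livers). Hepatocyte markers were lower in 3 of 5, with sums of 302754 and 196701 (Alb most abundant). The shares of all genes called lower and higher at Day1 were 8.64% and 9.06%. Erythroid median sums were 305 in saline and 161 in NDMA livers at Day2, and 458 and 231 at Day5. Cholangiocyte ones were 327 and 118 at Day5. The part of these markers in the Cdkn1c result was not tested.

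Few calls fell on the remaining genes at the early times in Mgmt-/-. Gpc3 was called higher at Day5 alone (0.70, SE 0.23, adjusted p = 0.0291), from a median of 36.5 to 51.9 with overlapping ranges, but edgeR gave an adjusted p of 0.0615. With both kidney-transcript libraries kept the value was 0.02, but these held 173 and 298 counts of Gpc3, so that fit does not bear on the liver values. Leaving out any of 5 livers (3 saline and 2 NDMA) also ended the Gpc3 call, with adjusted p-values up to 0.0964. The marker sums given beside Afp at Day5 hold for the same livers, and their part in the Gpc3 value was not tested. Mest had a median of 15.5 in NDMA and 30.9 in saline livers at Day5 (-0.65, adjusted p = 0.0849). Grb10 and Peg3 were not called at any time. Plagl1 did not pass the filter and had early medians between 0 and 3.55.

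**Figure D3:**
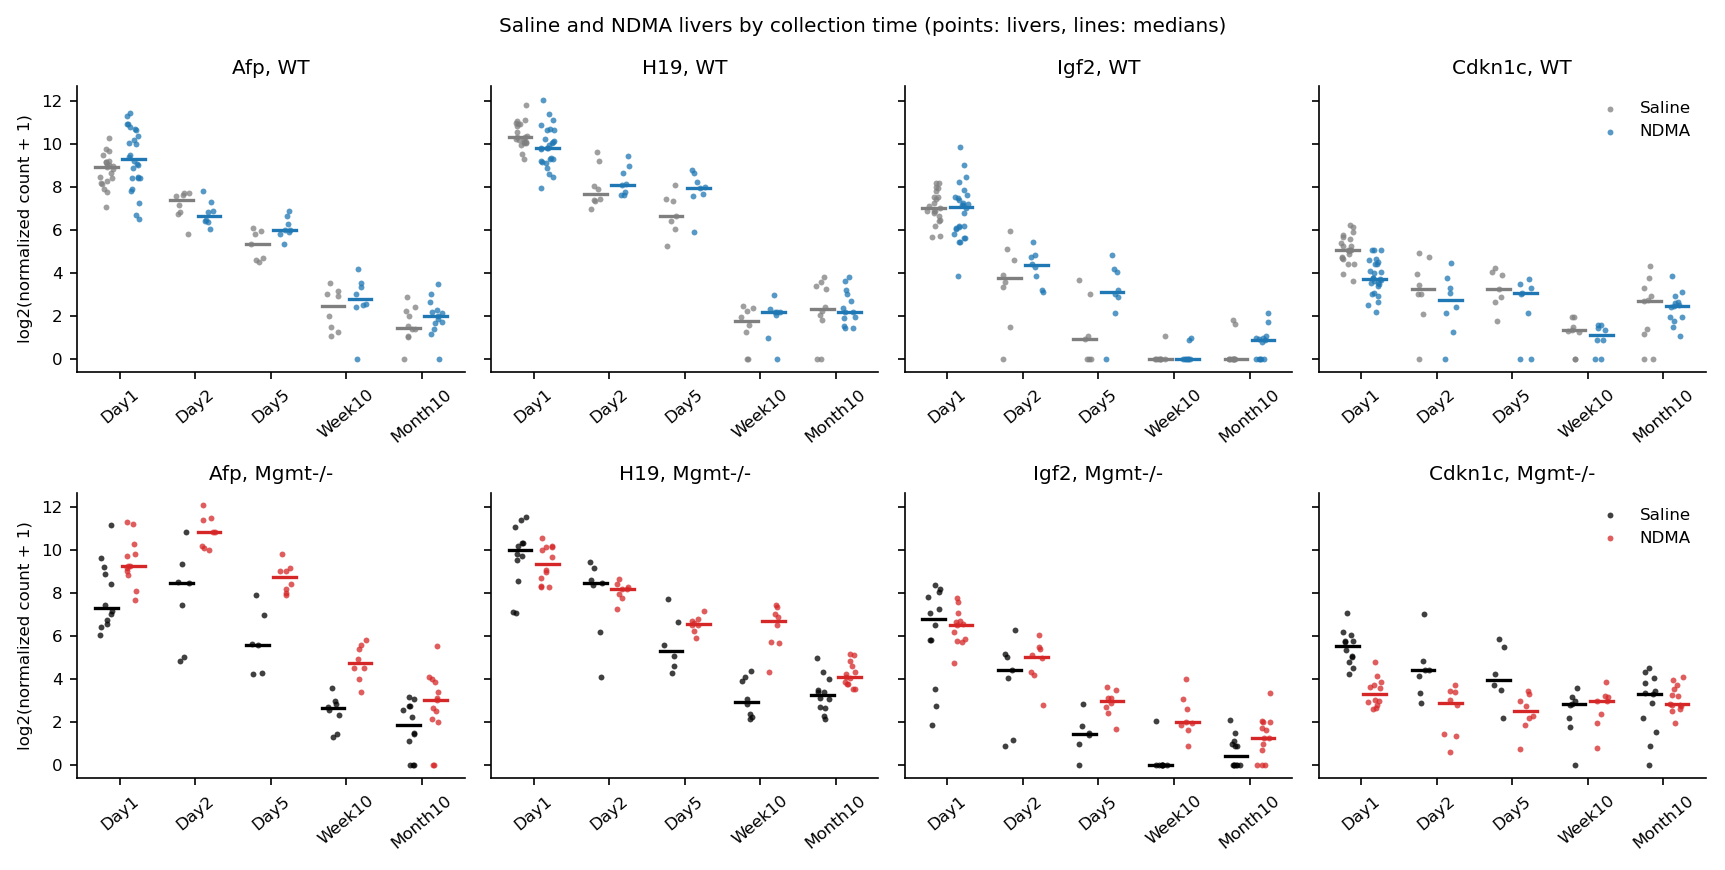
Log2(normalized count + 1) of Afp, H19, Igf2 and Cdkn1c in saline and NDMA livers at each time, WT in the upper row and Mgmt-/- in the lower, with 1 point a liver and a line at each median. The 8 Mgmt-/- NDMA livers at Day5 lie above every saline liver of that time for Afp, and Cdkn1c at Day1 is lower in NDMA livers of both genotypes.

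At Week10, when saline livers had lost nearly all of these RNAs, H19 and Afp rose in Mgmt-/- livers given NDMA as pups. H19 in the 4 female NDMA livers was 116, 130, 162 and 173 normalized counts, and in the 4 male NDMA livers 19.2, 51.1, 53.1 and 92.4. The saline females stood at 3.46, 6.12, 7.55 and 19.6, and the saline males at 3.69, 4.18, 14.1 and 16.0. Of the 8 NDMA livers 7 were above the highest saline liver, and the lowest, a male, was just under it. H19 rose by 3.25 on the log2 scale (SE 0.38, adjusted p = 2.1e-06), or 9.49-fold, and by 3.04 to 3.50 with 1 liver left out.

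Afp at Week10 was 15.4, 30.0, 40.9 and 55.4 in the NDMA females and 9.77, 21.9, 22.3 and 47.5 in the NDMA males. In saline livers it was 1.51, 4.08, 6.93 and 11.2 in females and 1.78, 4.92, 5.66 and 6.26 in males. Again 7 of 8 NDMA livers were above the highest saline liver, and the log2 fold change was 2.30 (SE 0.37, adjusted p = 1.1e-04). The adult NDMA medians were 104 for H19 and 26.1 for Afp. Mgmt-/- saline pups had higher medians at Day1 (1038 and 161) and Day2 (359 and 351), whereas at Day5 their medians were 40.1 for H19, below the adult one, and 48.0 for Afp, with ranges that overlapped those of the NDMA adults for both genes.

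The less abundant genes are given by their values at Week10. Mest stood between 3.41 and 15.8 in NDMA livers and between 0 and 6.06 in saline livers, with 7 of 8 above the highest saline liver. It passed the filter through the NDMA livers, with a mean of 8.66 there and 3.11 in saline livers, so its log2 fold change of 1.40 (SE 0.46), which was not called, is a description. Igf2, the growth factor, was detected in all 8 NDMA livers, from 0.88 to 15.4 with a median of 3.00, and was at 0 in 7 of 8 saline livers, with 3.13 in the other. It did not pass the filter. Dlk1, the hepatoblast membrane protein, gave 34 reads in all 207 libraries with recovered reads that were counted, and 24 of these were in 4 of the 8 NDMA livers at Week10, at 1.46, 2.65, 3.61 and 6.82 normalized counts. The liver at 3.61, the most deeply sequenced of all at 7740710 reads, gave 15 of the 24, and the other 3 gave 2, 3 and 4. The 8 saline livers at Week10 had 0 reads of Dlk1 among 11362085 in all, and a count of 0 allows up to 3 reads there. Plagl1 was above 0 in 4 of 8 NDMA livers and 0 of 8 saline livers. Gpc3, Peg3 and Grb10 had Week10 medians of 2.43, 1.47 and 4.39 in NDMA and 1.05, 1.62 and 3.63 in saline livers, all too low to be tested.

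**Figure D4:**
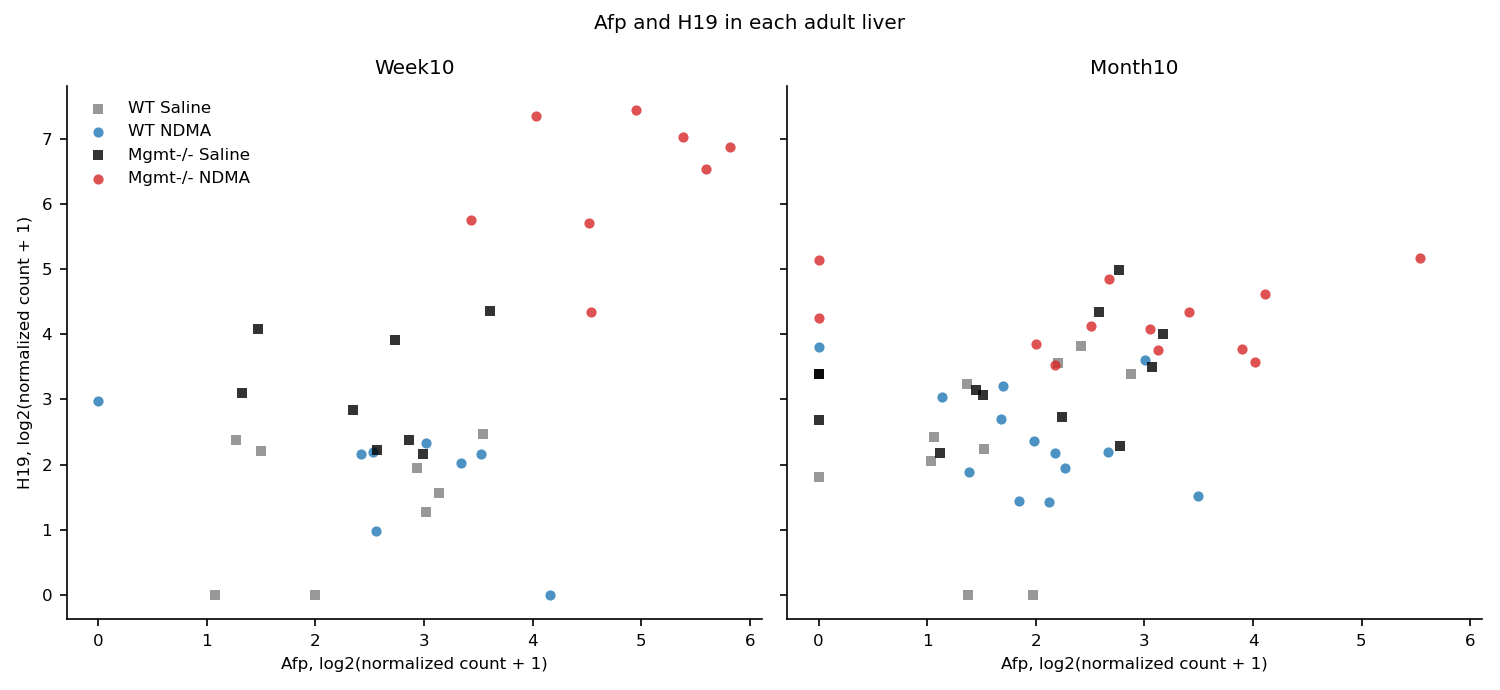
H19 against Afp, both as log2(normalized count + 1), in each liver at Week10 and Month10, with squares for saline, circles for NDMA and colors for genotype. At Week10 7 of 8 Mgmt-/- NDMA livers lie above the Mgmt-/- saline range for each gene, and at Month10 the groups overlap.

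Markers of other cell types and of dividing cells moved with Afp and H19 at Week10. All 3 tested of the 6 proliferation genes rose (Birc5, Top2a and Cdk1), and the list summed to 66.1 to 147 in NDMA livers (median 110.5) and 12.5 to 66.7 in saline livers (median 20.7), with Top2a most abundant. Stellate and fibroblast markers rose in 4 of 7 tested, with sums of 566 to 875 (median 672) and 358 to 465 (median 401), led in level by Dcn. Of the 6 cholangiocyte markers 2 could be tested and Spp1 rose, and the sum had a median of 86.9 in saline and 826 in NDMA livers, with Spp1 most abundant, and Cftr was at 0 in all saline livers. Hepatocyte markers were lower in 1 of 5 (Serpina1c), with median sums of 187242 in saline and 132568 in NDMA livers. Erythroid markers were not called (0 of 1 tested, median sums 103 and 114, Epb42 and Rhag at 0 in all saline livers). The kidney markers reached at most 3.84 in sum, none of 5 was tested, and Kap, Umod and Slc12a1 were at 0 in all 16 livers. Pancreas markers (0 of 1 tested called, Cela1) and skeletal muscle markers (0 of 1 tested called) were not called either. Beside these counts, 7.27% of all genes were called higher and 3.88% lower. The part of these cells in the Afp and H19 results was not tested.

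At Month10 the differences were smaller. In Mgmt-/- livers H19 ranged from 10.6 to 34.9 with NDMA (median 16.4) and from 3.52 to 30.9 with saline (median 8.67), and 2 of 13 NDMA livers were above the highest saline liver. It rose by 0.94 (SE 0.26, adjusted p = 0.0190), and the adjusted p was 0.0589 with edgeR and 0.0524 with DESeq2. Afp had medians of 7.30 and 2.80 and was not called (1.04, SE 0.49, adjusted p = 0.186). It passed the filter through the NDMA livers, with a mean of 10.2 there and 3.38 in saline livers, so its difference is a description. Of the 6 proliferation genes 3 were tested and Top2a, the most abundant in NDMA livers, rose, and the list summed to 23.2 to 112 in NDMA livers (median 36.9) and 7.78 to 37.6 in saline livers (median 12.2). Spp1 rose among 2 cholangiocyte markers tested, and the sums of that list did not overlap, at 184 to 3683 (median 369) and 42.5 to 132 (median 87.0). Stellate and fibroblast markers rose in 3 of 8, with median sums of 555 and 525. Beside these counts, 4.75% of all genes were called higher. The part of these markers in the H19 result was not tested.

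**Figure D5:**
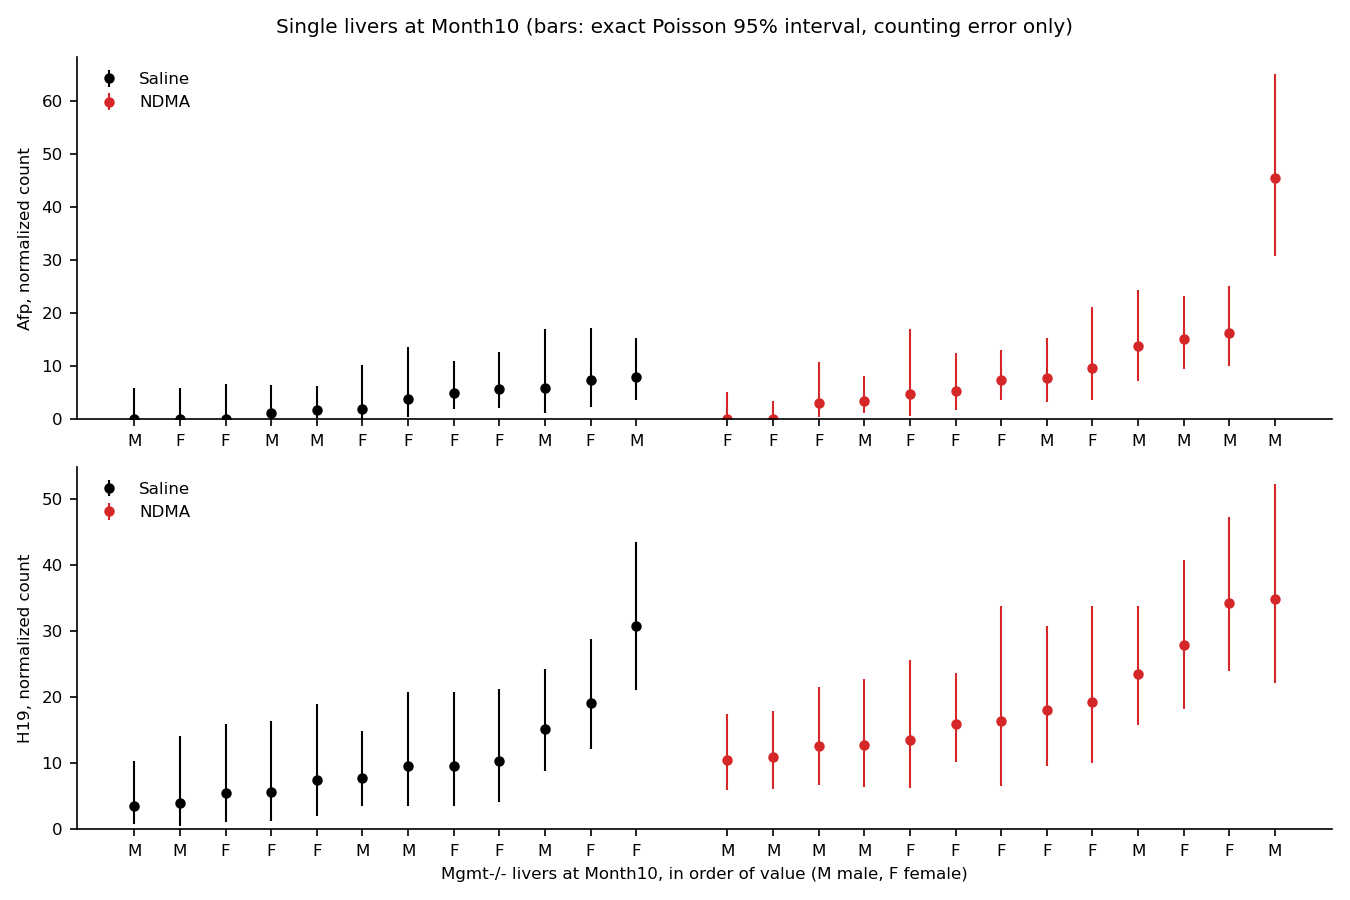
Normalized counts of Afp and H19 in each Mgmt-/- liver at Month10, saline in black and NDMA in red, in order of value and marked by sex, with exact 95% Poisson intervals that cover counting error only. Most NDMA livers lie within the saline range, and a male liver stands apart with 45.5 counts of Afp.

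Single livers differed widely at Month10, and each was read against the saline livers of its genotype and age, as a description. Afp exceeded the highest Mgmt-/- saline liver (8.02) in 5 of 13 NDMA livers, at 45.5, 16.3, 15.2 and 13.9 in males and 9.67 in a female. The value of 45.5 rested on 30 reads, with an exact 95% Poisson interval of 30.7 to 65.0 that covers counting error only. That male liver was also 1 of the 2 above the saline range for H19, at 34.9, and the other was a female at 34.2. Mest was above the saline maximum of 9.36 (5 reads) in 3 livers, at 28.5, 13.9 and 11.6, on 19, 12 and 12 reads. The other genes that went past their saline range did so on few reads. Peg3 was above 6.68 in 3 females, at 11.3, 11.1 and 7.05 on 7, 8 and 3 reads, and Plagl1 above 3.18 in 2 of these, at 8.06 and 4.70 on 5 and 2 reads. Igf2 reached 9.39 in 1 female on 4 reads, as many as the highest saline liver gave at 3.34, and Gpc3 5.78 in 1 male on 5 reads against 4.76. Dlk1 gave 1 read in each of 2 NDMA livers and 0 in the saline livers. Of the 13 Mgmt-/- NDMA livers, 2 were above the saline range for none of the 10 genes. In WT 9 of 13 NDMA livers were above it for none. Of the other 4, a pair exceeded the WT saline range in Afp, at 10.3 and 7.01 on 11 and 10 reads, where the highest saline liver had 6.33 on 2 reads. Mest was at 11.0 in 1 liver on 10 reads against 9.98 on 16 reads, and Igf2 at 3.36 in 1 liver against 2.52, both on 2 reads, so that this pair of Igf2 values differed only in the scaling of the libraries. The liver with 7.01 counts of Afp was also above the range in Peg3, at 4.91 against 4.76. Across the 13 Mgmt-/- NDMA livers Afp and H19 had a Pearson's r of -0.03.

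The genes most like each of them across those 13 livers were others than in the saline course. H19 ran with Parp14 (0.82), Caprin1 (0.81), Dmpk (0.80), Gbp9 (0.79) and Pign (0.78), and Afp with Tiam2 (0.85), Tmem192 (0.83), Bcap29 (0.82), Triap1 (0.81) and Echdc2 (0.78). Igf2, at 0 in 3 of the 13, ran with Rpsa (0.88), Flna (0.86), Arl14ep (0.81), Tada2a (0.79) and AW146154 (0.78). With so few livers of 1 batch these values only describe the livers at hand.

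In WT livers Cdkn1c, H19 and Gpc3 were called after NDMA, each at 1 time. Cdkn1c fell at Day1, where the saline livers ranged from 11.4 to 73.2 (median 32.7) and the NDMA livers from 3.53 to 32.6 (median 12.2), with 11 of 26 below the lowest saline liver (-1.33, SE 0.19, adjusted p = 2.6e-07). Within the 3 batches of Day1 the difference was -1.54, -0.66 and -1.49. H19 was also called lower at Day1 (-0.62, SE 0.21, adjusted p = 0.0326), with medians of 888 and 1255. Its within-batch differences were -0.88, -0.21 and -0.61, and edgeR and DESeq2, at -0.44 and -0.45, did not call it. These 2 of 8 genes tested stood against 4.19% of all genes called lower. Afp was not called at Day1 (0.49, SE 0.28, adjusted p = 0.215), and its within-batch differences were -0.29, 0.02 and 1.38. Beside these Day1 results, 3 of 7 stellate and fibroblast markers tested were lower and 1 higher, with median sums of 846 in saline and 557 in NDMA livers (Dcn most abundant, none of the 8 at 0 throughout). Hepatocyte markers were not called (0 of 5), with median sums of 247594 and 190665, and Spp1 was higher among 2 cholangiocyte markers tested, with sums of 193 and 322. Their part in the results was not tested.

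Gpc3 fell in WT at Day2, from a median of 59.9 to 31.2, with 7 of 8 NDMA livers below the lowest saline liver (-1.03, SE 0.24, adjusted p = 0.0123). It was the only 1 of 8 called there, and 2.91% of all genes were called lower. The difference was -0.76 in the males and -1.30 in the females, which were separate batches. Dcn fell and Acta2 rose among 7 stellate and fibroblast markers tested at Day2, with median sums of 827 in saline and 524 in NDMA livers. Alb fell among 5 hepatocyte markers, with sums of 243004 and 173875. Proliferation median sums were 142 in saline and 227 in NDMA livers. The sums of pancreas markers, nearly all Cela1, did not overlap, at 23.1 to 58.0 in saline and 64.5 to 138 in NDMA livers. The part of these markers in the result was not tested. At Day5 limma called none of 8, although 3 had an unadjusted p under 0.05, as did 17.9% of all genes, and 3.61% of all genes were called. Afp (0.86, adjusted p = 0.0808), H19 (1.16, adjusted p = 0.104) and Igf2 were the 3, and edgeR called Afp, whereas DESeq2 called H19 and Igf2. Igf2 passed the filter through the NDMA livers, with a mean of 10.6 there and 2.97 in saline livers, so its difference is a description. As adults the WT groups overlapped throughout. At Week10 only Afp passed the filter (0.38, adjusted p = 0.918), and 2 genes in all, 0.0249%, were called. Afp passed it through the NDMA livers, with a mean of 7.20 there and 4.95 in saline livers, so its difference is a description. At Month10 H19 (0.22) and Cdkn1c (0.15) were tested, neither with an unadjusted p under 0.05, and limma called 0% of all genes, with 757 at an unadjusted p under 0.05. The means there ran the other way, at 5.17 in NDMA and 5.56 in saline livers for H19 and 4.78 and 6.07 for Cdkn1c. No direction is read for either gene.

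The effect of NDMA was then compared between genotypes with a genotype by treatment term in edgeR. At Week10 both genes tested had a larger rise in Mgmt-/-, by 3.21 on the log2 scale for H19 (adjusted p = 0.0079) and 1.89 for Afp (adjusted p = 0.048), and 3.65% of all genes were called in that direction. H19 averaged 2.33 and 3.18 in saline and NDMA livers of WT and 9.35 and 99.6 in those of Mgmt-/-. For Afp these means were 4.95 and 7.20 in WT and 5.29 and 30.4 in Mgmt-/-. Both genes were thus high in 1 of the 4 groups and could pass a filter on low counts through that group. For H19 the WT pair alone was too low for limma to test. With no filter on low counts, a fit chosen after seeing the data in which all 10 genes were tested, the terms were 3.21 for H19 (adjusted p = 0.00072) and 1.89 for Afp (adjusted p = 0.0272), the other 8 were not called, and 350 of 17475 genes were called higher. That fit shares its estimate of spread with genes near 0 and gave smaller p-values than the filtered one for both genes. The Mgmt-/- and WT livers at Week10 came from different batches, and in the levels the 2 factors cannot be told apart, while each genotype's own NDMA and saline livers shared theirs. With the filter, none of the 10 genes was called at the other times. The term for Afp was 2.28 at Day2 (adjusted p = 0.207) and 1.74 at Day5 (adjusted p = 0.219). At Day5 the term ran the other way, with NDMA livers lower relative to saline in Mgmt-/- than in WT, at -1.54 for Mest (adjusted p = 0.0542) and -1.97 for Cdkn1c (adjusted p = 0.142). The term for Cdkn1c was -0.92 at Day1 (adjusted p = 0.330), and that for H19 was 0.92 at Month10 (adjusted p = 0.356). Of 8, 8, 8 and 2 genes tested, 1, 1, 3 and 0 had an unadjusted p under 0.05 at Day1, Day2, Day5 and Month10, as did 9.46%, 17.1%, 15.2% and 14.3% of all genes. Of all genes, 0.00944%, 4.02%, 2.42% and 1.52% were called at those times.

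Among the Mgmt-/- NDMA livers at Week10 every female H19 value was above every male one, whereas the saline values of the sexes overlapped. A sex by treatment term was tested in the adult Mgmt-/- livers, because the labels give sex and tumors of this model are known to depend on it. It was -1.63 (male minus female) for H19, with an unadjusted p of 0.0285 and an adjusted p of 1.00. None of 4 genes was called at Week10, where 0.114% of all genes were called, or at Month10, where 0.338% were. At Month10 the term was 1.89 for Cdkn1c (adjusted p = 0.0899), from -0.55 in females and 1.35 in males, and 1.90 for Afp (adjusted p = 0.256), from 0.21 in females and 2.11 in males. Afp passed the filter at Month10, and Mest at both times, through the NDMA livers, so their terms are descriptions.

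Other genes of the same kinds were read beside the 10. Some stand in more than one list, since Sox9 and Epcam are also cholangiocyte markers, Dcn is also a stellate marker and Igf2r is both imprinted and an IGF receptor. Of 20 other oncofetal genes 19 were in the Mgmt-/- table, and NDMA livers at Week10 had 9 higher and 0 lower of 11 tested, where 7.27% of all genes rose. These lists were drawn up with earlier results of these data known, so their counts are descriptions and no independent support. A gene of these lists that is near 0 in saline livers could be tested only where NDMA livers were high. The counts here and below thus describe the genes that could be tested and not the whole lists. The leading genes were Ly6d (6.94, SE 0.31), a surface marker of progenitor cells, Tff3 (5.50), a secreted trefoil peptide, Spink1 (4.35), a trypsin inhibitor, and Tspan8 (3.42), a tetraspanin. At Month10, 8 of 10 were higher and 0 lower, beside 4.75% of all genes higher, led by Tff3 (4.89), Ly6d (3.97), Scd2 (2.62), a fatty acid desaturase, and Tspan8 (1.91). The early times had 4 higher and 1 lower of 12 at Day1, 5 and 1 of 10 at Day2, and 5 and 0 of 9 at Day5, with Spink1 at 4.47 and 4.58 at Day2 and Day5. The shares of all genes called higher at these times were 9.06%, 12.4% and 11.1%. In WT, 4 of 11 rose at Day1, among them Ly6d (2.27) and Spink1 (2.24), and 1 fell, beside 5.01% of all genes higher and 4.19% lower. At Day2 2 of 9 rose (3.33% of all genes) and at Day5 2 of 9 (2.22%), and limma called 0 of 4 at Week10 and 0 of 6 at Month10. With age alone, 6 of 10 fell from Day2 to Week10 in WT saline livers and 0 rose, beside 12.2% of all genes lower, led by Spink1 (-4.21), Tff3 (-3.66), Igf2bp3 (-3.29), an RNA-binding protein of fetal tissues, and Prom1 (-2.38). In Mgmt-/- saline livers 8 of 10 fell from Day1 to Week10, beside 9.44% of all genes, led by Cd24a (-3.76).

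Other imprinted genes were mostly not called. Of 45, 42 were in the Mgmt-/- table, and at Week10 5 rose with NDMA and 0 fell of 23 tested, where 7.27% of all genes rose and 3.88% fell. The leading ones were Phlda2 (2.63, SE 0.47, adjusted p = 0.00036), which restrains placental growth, Sgce (1.81), a sarcoglycan, and Snrpn and Snurf (1.46 each), which share a transcript. At Month10 Meg3 (2.34), a noncoding RNA, and Sgce (2.16) rose and Dhcr7 (-0.79), an enzyme of cholesterol synthesis, fell, of 22 tested (4.75% and 2.99% of all genes). At Day1 Ascl2 (2.51) and Sgce (0.64) rose and Dcn and Slc38a4 fell, of 22 (9.06% and 8.64% of all genes). At Day2 Asb4 (1.54) and Sgce (0.94) rose, of 21 (12.4% of all genes), and at Day5 none of 20 was called. In WT Mcts2 and Slc22a18 rose at Day1, 2 of 21 beside 5.01% of all genes. Dcn (-1.07) and Slc38a4 (-0.68) fell at Day2, 2 of 19 beside 2.91%, and Dcn fell at Day5, 1 of 19 beside 1.39% of all genes. None was called by limma in WT adults, of 20 at Week10 and 21 at Month10. With age, 3 rose and 3 fell of 21 from Day2 to Week10 in WT saline livers (7.29% and 12.2% of all genes), with Dhcr7 at 1.78 and Sgce at -1.45.

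The known regulators of Afp and H19 had at most 1 call in each comparison of NDMA with saline. All 14 were in the table. In Mgmt-/- 1 of 13 fell at Day1 (Nr5a2, -0.65, beside 8.64% of all genes lower), 1 of 12 rose at Day5 (Trim28, 0.63, beside 11.1% higher) and 1 of 13 fell at Week10 (Cebpa, -0.59, beside 3.88% lower), shares too close to those of all genes to say anything particular about regulators. None of 12 at Day2 or 13 at Month10 was called by limma in Mgmt-/-, and none in WT. Zhx2, a repressor of Afp after birth, was not called in any NDMA comparison. With age, 1 of 13 rose and 1 fell from Day1 to Week10 in Mgmt-/- saline livers, where 7.35% of all genes rose and 9.44% fell. The one that rose was Zbtb20, another such repressor (1.30, SE 0.27, adjusted p = 0.00031). From Day2 to Week10 in WT, 1 of 13 rose (Hnf4a, 0.79) and 2 fell (Trp53, -0.80, and Trim28, -0.71), beside 7.29% and 12.2% of all genes.

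Partners of Igf2 in the IGF pathway were called after NDMA mainly in pups. In Mgmt-/- at Day1 7 of 14 fell and 0 rose, where 8.64% of all genes fell, led by Igfbp3 (-2.11, SE 0.25), which carries IGFs in plasma, Igfals (-1.59), which stabilizes that complex, Igf1r (-1.02), the receptor, and Igfbp5 (-0.88). At Day2 4 of 13 fell (7.5% of all genes), with Igfals at -2.28 and Igf1, the main IGF after birth, at -1.02, and at Day5 Igfals (-2.70), Igfbp3 (-1.95) and Igf1 (-1.24) fell and Igfbp2 (1.10) rose, of 12, where 6.71% of all genes fell and 11.1% rose. At Week10 Igfbp1 (adjusted p = 0.00095) and Igfbp7 (0.62) rose and Igfals (-1.07) fell, of 13 (7.27% and 3.88% of all genes), and at Month10 Igfbp5 (-1.28) alone was called lower, of 14 (2.99% of all genes). In WT 4 of 13 fell at Day1 (4.19% of all genes), with Igfbp3 at -2.11, and Igfals (-1.46) alone of 13 fell at Day2 (2.91%).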

How the data were processed

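Liver RNA of 213 samples (117 WT and 96 Mgmt-/-) was analysed, and 1 further labelled Mgmt-/- saline sample at Month10 was not analysed here. Per the labels, 3′ libraries with unique molecular identifiers were made from polyA RNA. Alignment by the authors used STAR and GRCm38/mm10, genes were counted with ESAT, and they deposited the signal of each gene as counts divided by DESeq2 size factors, 1 table a genotype, so that levels set across genotypes come from separate normalizations. Versions and gene annotation are not given in the sources used here. Whole reads were recovered from the deposited values in 209 of 213 columns (100% of values whole within 0.02).

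Deposited values were tested as log2(value + 1) with limma 3.58.1 (trend and robust, two-sided), in genes averaging at least 5 in the livers compared, with sex and batch as terms and Benjamini-Hochberg adjustment over all genes. A call needed an adjusted p below 0.05 with a log2 fold change beyond 0.58 either way. Fold changes on this scale understate those of low genes. Saline ages were fitted over all saline livers of a genotype, and sex by treatment in Mgmt-/- adults. The genotype by treatment term was fitted with edgeR 4.0.16 (quasi-likelihood, TMM, filterByExpr) on the recovered reads, called at an adjusted p under 0.05, without the 4 libraries that gave none (3 WT saline at Day2, 1 Mgmt-/- NDMA at Day1). DESeq2 1.42.0, other pseudocounts, filters, covariates and scalings, and leaving out 1 library in turn (93 refits) were alternatives. The tests were run on simulated data first. R 4.3.3 and Python 3.11.15 were used.

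The 10 genes and all gene lists were chosen with earlier results of these data known. The lists were other imprinted genes, other oncofetal genes, regulators of Afp and H19, IGF pathway partners, and markers of hepatocytes, cholangiocytes, stellate cells and fibroblasts, erythroid precursors, proliferation, kidney, pancreas and skeletal muscle. Named genes were all 10, up to 4 called genes of each list and comparison with the largest change, and the 5 most like H19, Afp and Igf2, of which 1 gene is not reported here. P-values measure the spread between the livers sampled, with each liver taken as independent. By the authors' account treatment was set by litter at birth. The labels do not give litter, so no fit held a term for it. A count of 0 in a group allows 3 reads, and intervals cover counting error only.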

Additional observations from a re-analysis of the deposited data

Results flagged for a closer look

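A single high or low liver was looked for in 72 sets, each the values of 1 gene in 1 group of 4 to 10 livers. Of these, 11 had one, where chance gives about 1 in 20 for independent sets. The sets share livers and are not independent, and the same liver was flagged for several genes. Several of the 11 were in shallow WT libraries. The shallowest of all, a WT NDMA liver at Day2 with 150038 reads, stood below its group in Gpc3 (10.5), Mest (0) and Grb10 (0). A WT NDMA liver at Day5 was at 0 for both Peg3 and Grb10, another had 59.0 counts of H19, below the other livers, and a WT NDMA liver at Week10 with 270673 reads was at 0 for Afp. Low Grb10 (3.86) marked a WT saline liver at Day2. In Mgmt-/- livers, the saline liver at Day2 that was high in Afp was also high in Grb10 (81.4), and single NDMA livers were high in Peg3 at Day2 (30.4) and at Day5 (27.0).

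The effect of NDMA at Week10 differed between the genotypes in the genotype by treatment term of edgeR, by 1.89 for Afp and 3.21 for H19, both larger in Mgmt-/-. H19 was low in both WT groups (means of 2.33 and 3.18) and high only in the Mgmt-/- NDMA livers (99.6, against 9.35 with saline), and could pass the filter through that group. With no filter on low counts its term was 3.21 (adjusted p = 0.00072), in a fit that shares its estimate of spread with genes near 0. Afp could pass the filter in the same way. Its means in saline and NDMA livers were 4.95 and 7.20 in WT and 5.29 and 30.4 in Mgmt-/-.

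The pair of libraries labelled Mgmt-/- saline Day5 that held kidney transcripts entered no comparison as reported, and was kept only in alternative fits. The first, from a female, had 173 counts of Gpc3, 3.87 of Plagl1, 80.3 of Peg3 and 46.8 of Grb10, and the second, from a male, had 298 of Gpc3, 219 of Cdkn1c and 49.6 of Peg3. Each value lay above the 6 saline livers of that group.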

How the results depend on the processing

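Each comparison was refitted with 1 choice changed at a time, and no result changed direction while called. The edgeR and DESeq2 fits were exceptions, since they also left out the 4 libraries without recovered reads, mostly WT saline livers at Day2. Counts of the 10 genes called moved as follows. With the filter at a mean of 20, counts were 1 at Mgmt-/- Day2 and at Week10 (H19), 0 at Month10, 4 for WT Week10 and Month10 against Day2, 0 for WT Month10 against Week10 and 2 for WT Day5 against Day1. With edgeR, counts were 1 at WT Day1 (Cdkn1c), 2 at WT Day2 (Igf2 and Gpc3), 1 at WT Day5 (Afp), 1 at Mgmt-/- Day2 (Cdkn1c), and 0 at Mgmt-/- Month10 and for WT Day5 against Day1. The WT Day2 saline livers missing from that fit had Igf2 at 60.2 and 33.8, the highest saline values, and 11.1. The Igf2 call there thus followed a change of method and of livers together, and which of them gave it was not tested. DESeq2 gave 2 at WT Day5 (H19 and Igf2) and 0 at Mgmt-/- Month10. Without covariates the count was 1 at WT Day1, 6 for WT Day5 against Day1 and 2 for WT Month10 against Week10, and with equal totals 1 at WT Day1 and 2 for WT Month10 against Week10. A pseudocount of 5 gave 3 for WT Day5 against Day1 and 0 for WT Month10 against Week10, and no filter gave 2 for the former. Leaving out libraries under 300000 reads gave 2 at WT Day5 (Afp and Igf2). Igf2 averaged under 5 in the Day5 saline livers of both genotypes, so its calls there are descriptions. Comparing WT Day5 with Day2, chosen after seeing the data, gave 2. With 1 library left out, counts ran from 1 to 2 at Mgmt-/- Day2 and up to 5 at Day5. With no filter in the genotype by treatment term, chosen after seeing the data, 2 genes were called at Day2 (Afp and H19) and 3 at Day5 (Afp, Mest and Cdkn1c). At Day5 the term for Afp went from 1.74 to 1.85 and its unadjusted p from 0.0210 to 1.6e-10, so these calls rest on a spread estimated with genes near 0. Of 533 refitted values of genes called in the comparisons as reported, 506 kept the call and 27 lost it. Calls gained by other genes are not in this tally. Called genes that the filter of a refit removed are not in it either, so it understates the calls lost. The cause of the lost calls was not tested. No paired analysis was possible because the labels number each library uniquely and share no number between groups. Adult levels of 1 to 10 counts limit what could be tested.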
